A study of Mus musculus with 8 samples.

Results

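Autophagy carries cytoplasmic proteins and organelles to the lysosome inside a double membrane, the autophagosome. Ulk1, a protein kinase, starts the process, Becn1 (Beclin 1) is a subunit of the lipid kinase complex that marks the site, and Wipi1 binds the lipid made there. Proteins of the ATG8 family, here Map1lc3a, Map1lc3b, Gabarapl1 and Gabarapl2, are coupled to a lipid of the growing membrane. Sqstm1, also called p62, is a cargo receptor that binds ubiquitinated proteins on one side and ATG8 proteins on the other. It is itself degraded with its cargo, and in oxidative stress it can sequester Keap1, the protein that keeps the transcription factor Nfe2l2 (NRF2) low.

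These 8 genes were taken by name, from a list drawn up with earlier results of these data known, and no measured value enters the rule itself. All 8 were present in each of 3 gene tables, which together held 10690 genes, 9875 of them in every table. The cells were NIH3T3, an established line of mouse fibroblasts, and there was 1 QuantSeq FWD library per condition. QuantSeq FWD reads start near the 3′ end of a transcript, so a gene's reads count transcripts without a correction for length, and MAAPER assigns them to known polyadenylation sites (PASs). NT cells were nontreated. AS cells were given 250 µM sodium arsenite for 1 h, a source of oxidative and proteotoxic stress. RC4 and RC8 cells had the same arsenite treatment and then 4 h or 8 h in regular medium. Between 22441452 and 22996421 reads per library fell on genes, and levels are given in RPM, the reads of a gene per 1000000 of these.

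Each condition had a single library, so no replicates exist and conditions were not tested against each other. Intervals given here are 95% intervals of counting error alone. Variation from culture to culture is outside them, and several reads may stem from 1 molecule, since the sources name no molecular identifiers. A gene was said to have risen or fallen where its RPM differed by 1.5-fold or more from NT, and the share of all genes past the same limit is given as background. AS, RC4 and RC8 were all compared with the same NT library. In cultured cells measured in bulk, fewer cells that express a gene and less RNA per cell cannot be told apart. Of the markers of the labelled cell type, 7 of 7 fibroblast genes were listed, with a summed level of 4792 RPM in NT, 4809 in AS and, after the wash, 3844 in RC4 and 3329 in RC8. None of the 7 passed 1.5-fold in AS, 4 fell in RC4 and 5 fell in RC8. Falls past this limit were seen in 31.8% of all genes for RC4 and 11.9% for RC8. Marker counts were not set relative to the median gene, whose log2 ratio in RC4 was −0.30. The 4 markers that fell there were Sparc (−0.60), Col1a2 (−0.84), Col3a1 (−1.45) and Pdgfrb (−2.18), so part of each fall was shared by the median gene. Pdgfrb, a growth factor receptor of fibroblasts, went from 150 RPM in NT to 33.1 in RC4, while Fn1 (fibronectin) was 1.03-fold of NT there. The part of this in the levels of the 8 genes was not tested. None of 4 epithelial, 4 immune and 3 endothelial markers was in a table, where the lowest entry for a gene is 50 reads. Hmox1, the heme oxygenase that arsenite is known to induce, was at 27.6 RPM in NT, 57.8 in AS and, in recovery, 888 in RC4 and 101 in RC8.

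The transcript ends behind the results are shown for the 3 members whose PAS use or reads bear on a finding below. Each line gives the 30 bases of the mm9 genome that end at the PAS, on the strand of the gene, and capitals mark the polyadenylation signal AATAAA. Sqstm1 lies on the minus strand of chromosome 11, with PASs at positions 50013975 and 50013657. Map1lc3b and Gabarapl2 lie on the plus strand of chromosome 8. Their PASs are at 124120710 or 124120745, 124120926 and 124121911 for Map1lc3b, and at 114476457 and 114476815 for Gabarapl2. The other members end at position 155103780 of chromosome 2 (Map1lc3a, plus strand), 129492346 of chromosome 6 (Gabarapl1, plus strand) and 111213508 of chromosome 5 (Ulk1, minus strand). Wipi1 and Becn1, on the minus strand of chromosome 11, have their first PASs at 109434854 and 101150017. All PASs of the 8 genes fall in annotated UTR of GENCODE vM1 and are listed for the 3′-most exon.
Sqstm1, first PAS: tgccgccagcattgcaccagcagtccagaa
Sqstm1, last PAS: acctgtAATAAAatggcatatgcactttaa
Map1lc3b, first PAS in the AS and RC8 tables: aagccaatggttgttaagcccttaccaagg
Map1lc3b, first PAS in the RC4 table: agggatgttaccagcggacgctggacggct
Map1lc3b, second PAS: actttttgcatcctaagttgccAATAAAaa
Map1lc3b, last PAS: gcgggcggcctccattataggacacctgta
Gabarapl2, first PAS: cttaatatattggaaggttttgtttcctta
Gabarapl2, last PAS: aattaacAATAAAgcctccttataaaggca
The signal AATAAA stood 18 bases before the last PAS of Sqstm1 and 17 bases before that of Gabarapl2, whereas the first PAS of each had neither AATAAA nor ATTAAA in the window. In Map1lc3b only the second PAS had AATAAA, 2 bases before the site. Of all 21565 PAS positions listed in the tables, 36.0% had AATAAA and 47.0% had either signal in the same window.

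Sqstm1 had the largest change of the 8 genes in RC4 and RC8, and most of it was seen after arsenite had been removed. Its level was 159 RPM in NT (95% Poisson interval 154 to 164), 189 in AS (183 to 195) and, after the wash, 1199 in RC4 (1185 to 1214) and 581 in RC8 (572 to 591). The order was thus RC4, RC8, AS and NT, and no neighbours in this order were within counting error. The log2 ratio to NT was 0.25 in AS (0.18 to 0.31) and, in recovery, 2.91 in RC4 (2.86 to 2.96) and 1.87 in RC8 (1.81 to 1.92). Sqstm1 rose 7.52-fold in RC4, where it ranked 13 of 10081 genes, and 3.65-fold in RC8, where it ranked 30 of 10441 genes. From RC4 to RC8 its level dropped 2.06-fold.

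Among the 4 ATG8 family members, Map1lc3b had the largest rise in RC4. Its level was 108 RPM in NT (103 to 112), 118 in AS (114 to 123) and, after the wash, 253 in RC4 (246 to 259) and 176 in RC8 (171 to 182). This was 2.34-fold above NT in RC4 and 1.64-fold above NT in RC8. Gabarapl1 followed the same order of libraries, with 159 RPM in NT (154 to 164), 198 in AS (192 to 204) and, in recovery, 338 in RC4 (330 to 345) and 264 in RC8 (257 to 271). It rose 2.12-fold in RC4 and 1.66-fold in RC8.

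The other ATG8 genes changed less. Gabarapl2 was at 205 RPM in NT (199 to 211), 237 in AS (231 to 243) and, after the wash, 317 in RC4 (310 to 325) and 278 in RC8 (271 to 285). It rose 1.54-fold in RC4, and its ratio in RC8 was 1.36. Map1lc3a was the ATG8 gene with its highest level in RC8, at 91.3 RPM in NT (87.4 to 95.4), 102 in AS (97.5 to 106) and, in recovery, 135 in RC4 (130 to 140) and 144 in RC8 (139 to 149). It was 1.48-fold above NT in RC4, just short of the limit, and rose 1.57-fold in RC8. From RC4 to RC8 the log2 change was 0.09 for Map1lc3a (0.02 to 0.16), −0.19 for Gabarapl2 (−0.24 to −0.14), −0.36 for Gabarapl1 (−0.40 to −0.31) and −0.52 for Map1lc3b (−0.58 to −0.46).

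The members that act at the start of autophagy, Ulk1, Becn1 and Wipi1, stayed within the limit in each comparison, although Becn1 passed it in RC4 relative to the median gene (0.61) and Wipi1 in RC8 with the first count column alone (−0.63). Ulk1 was at 66.6 RPM in NT (63.3 to 70.1), 56.9 in AS (53.8 to 60.1) and, after the wash, 66.5 in RC4 (63.2 to 69.9) and 78.9 in RC8 (75.3 to 82.6). Its lowest level was in AS and its highest in RC8, with NT and RC4 within counting error of each other. Becn1 was at 128 RPM in NT (123 to 132), 121 in AS (117 to 126) and, in recovery, 158 in RC4 (153 to 163) and 164 in RC8 (158 to 169). The recovery libraries were above the other two, while RC4 and RC8 were within counting error of each other, as were NT and AS. Wipi1 was the gene whose level was highest in NT, at 50.1 RPM (47.2 to 53.1), with 40.0 in AS (37.4 to 42.7) and, after the wash, 37.8 in RC4 (35.3 to 40.4) and 33.8 in RC8 (31.5 to 36.2). Its level in RC8 was 1.48-fold below NT, just short of the limit.

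**Figure D1:**
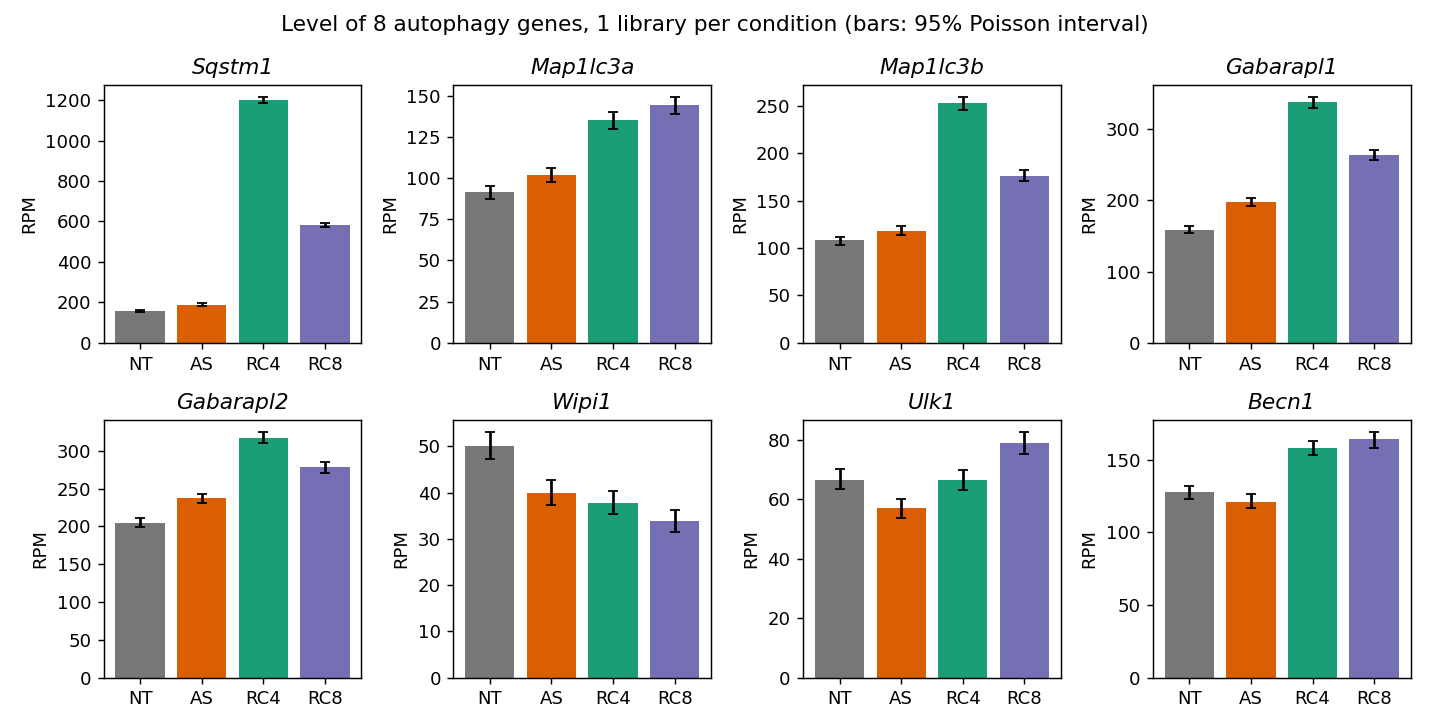
RPM of each of the 8 genes (y axis, a scale of its own for each gene, from 0) in the NT, AS, RC4 and RC8 libraries (x axis); bars are single libraries and error bars are 95% Poisson intervals. Sqstm1 stands at 1199 RPM in RC4 against 159 in NT, and Wipi1 is highest in NT at 50.1.

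As a group, no member rose or fell 1.5-fold in AS, where 1.88% of all 10452 genes rose and 11.4% fell. In RC4, 4 of the 8 genes rose (Sqstm1, Map1lc3b, Gabarapl1 and Gabarapl2) and none fell, while 8.04% of all 10081 genes rose and 31.8% fell. In RC8, 4 rose (Sqstm1, Map1lc3a, Map1lc3b and Gabarapl1) and none fell, with 11.3% of all 10441 genes higher and 11.9% lower. The median log2 ratio of the 8 genes was 0.15 in AS and, in recovery, 0.59 in RC4 and 0.55 in RC8, beside −0.04, −0.30 and 0.01 over all genes. Since the median gene in RC4 was itself lower by 0.30, levels were also set relative to it. On that scale the ratio of Sqstm1 in RC4 was 3.21, 6 of the 8 genes were past the limit, Map1lc3a (0.86) and Becn1 (0.61) being added, and none fell, while the background became 15.0% higher and 17.4% lower. Wipi1 in RC4 was at −0.41 before and −0.11 after this centring, and Ulk1 at −0.02 before and 0.28 after it.

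**Figure D2:**
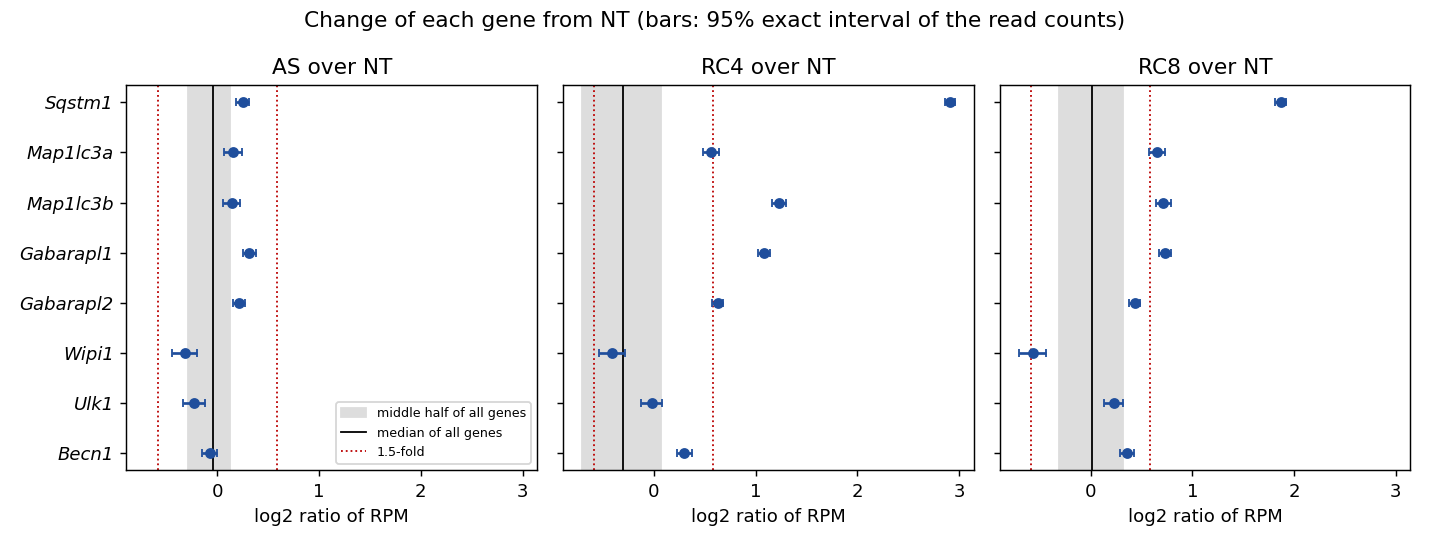
Log2 ratio to NT (x axis) of the 8 genes (y axis) in AS, RC4 and RC8, with 95% exact intervals of the read counts; the grey band spans the quartiles of all genes, the black line is their median and dotted lines mark 1.5-fold. Sqstm1 lies at 2.91 in RC4 and 1.87 in RC8, and none of the 8 genes passes a dotted line in AS.

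PAS use could be compared in the 5 members with more than 1 PAS. Map1lc3a, Gabarapl1 and Ulk1 had a single PAS in every table. No member had a PAS whose share of the gene's reads moved by 10 percentage points in AS or RC4, and 1 did so in RC8. The background among genes with at least 2 PASs was 15.2% of 5287 in AS, 29.0% of 5343 in RC4 and 26.9% of 5357 in RC8.

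The exception was Map1lc3b. Its last PAS held 71.1% of the reads in NT (95% Wilson interval 69.3 to 72.9), 71.6% in AS (69.9 to 73.3) and, after the wash, 64.1% in RC4 (62.9 to 65.3) and 51.2% in RC8 (49.7 to 52.7). The difference of −19.9 points in RC8 (Newcombe interval −22.2 to −17.5) was as large or larger in 5.08% of genes with at least 2 PASs. In the RC8 table the second PAS went from 10.5% in NT to 25.3%, and the first PAS from 18.4% to 23.5%. The split between these sites depended on the table: the same NT library had 5.43% at the second PAS and 23.5% at the first PAS of the RC4 table. MAAPER listed a first PAS 35 bases further downstream in the RC4 table than in the others, so the earlier PASs, which have near copies elsewhere in the genome, were also added up. Together they stood at 31.1 RPM in NT, 33.7 in AS and, in recovery, 90.7 in RC4 and 86.1 in RC8, while the last PAS stood at 76.5, 84.8, 162 and 90.3. From RC4 to RC8 the log2 change was −0.84 for the last PAS (−0.92 to −0.77) and −0.08 for the earlier PASs together (−0.17 to 0.01). The decrease of Map1lc3b reads between the recovery times thus lay mostly at its last PAS, which gives the longest 3′UTR.

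Gabarapl2 had a lower share at its last PAS in both recovery libraries, by less than 10 points. The last PAS held 88.0% of the reads in NT (87.0 to 88.9), 87.0% in AS (86.1 to 87.9) and, in recovery, 81.1% in RC4 (80.2 to 82.0) and 80.0% in RC8 (79.0 to 81.0). In RPM, the first PAS rose 2.43-fold in RC4 and the last PAS was 1.42-fold above NT. Differences as large as the 6.90 points in RC4 (5.59 to 8.19) and 8.00 points in RC8 (6.64 to 9.35) were seen in 45.5% and 36.7% of genes with at least 2 PASs.

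Sqstm1 rose at both of its PASs. The first PAS held 9.66% of the reads in NT (8.74 to 10.7), 11.1% in AS (10.2 to 12.1) and, in recovery, 8.93% in RC4 (8.60 to 9.27) and 13.0% in RC8 (12.4 to 13.6). In RC4 the first PAS was 6.95-fold and the last PAS 7.58-fold above NT, with a difference in share of −0.730 points for the first PAS (−1.79 to 0.255). In RC8 the share of the first PAS was 3.34 points above NT (2.19 to 4.43). The shares of Becn1 were within counting error of NT in all 3 tables. For Wipi1 the first PAS was 4.70 points above NT in RC8 (0.810 to 8.66), and the intervals of its other differences included 0. For Wipi1 the last PAS of the AS table was another position than in the RC4 and RC8 tables, so its shares were compared within a table only. The first PAS of Wipi1 in the same NT library held 25.8% in the AS table and 21.8% in the RC8 table, beside 26.5% in RC8. The interval of the 4.70 points covers counting error alone and makes no allowance for such a difference between tables.

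**Figure D3:**
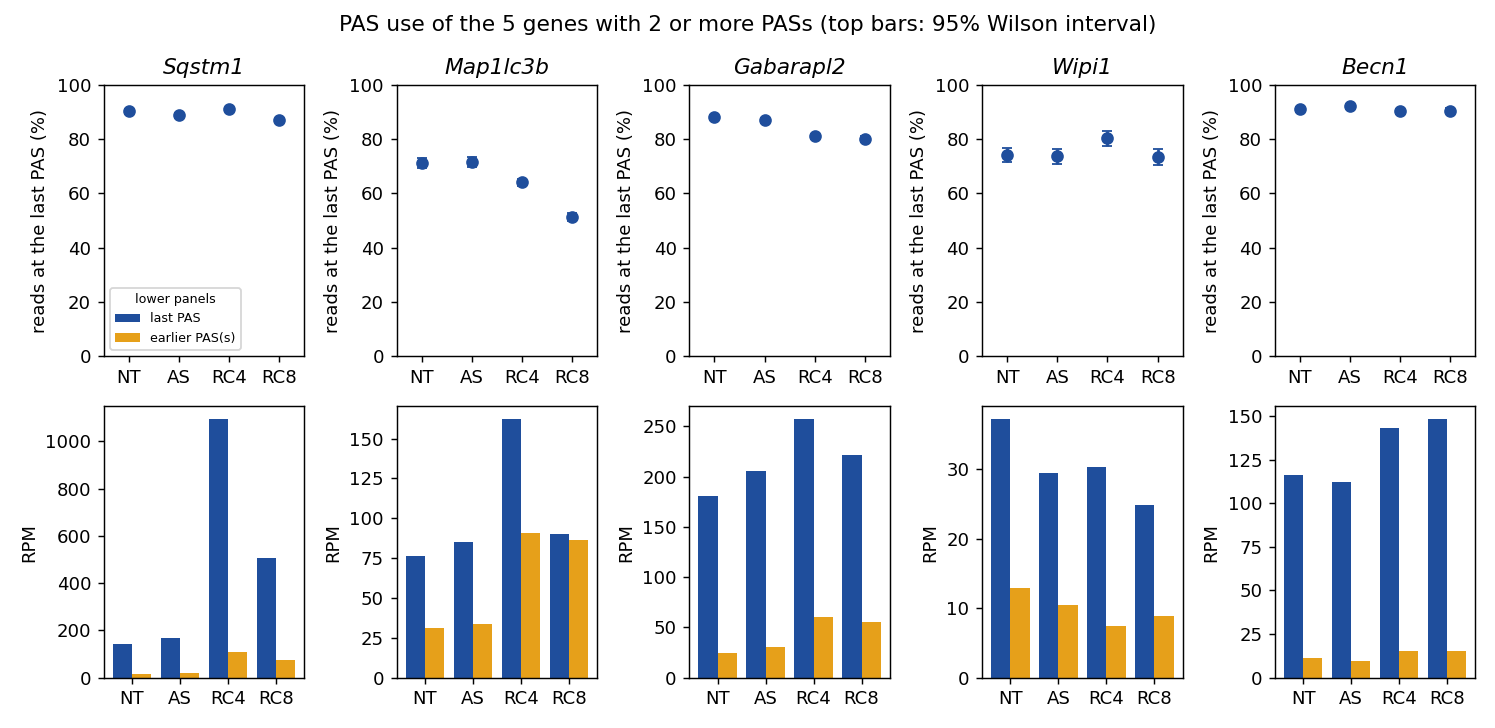
Upper panels give the share of reads at the last PAS (y axis, percent) with 95% Wilson intervals, and lower panels the RPM at the last PAS and at the earlier PASs together (y axis, from 0), by library (x axis). The share of Map1lc3b falls from 71.1% in NT to 51.2% in RC8; for Wipi1 the last PAS of NT and AS is not the same position as that of RC4 and RC8.

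Some 3′ ends of the members have near copies elsewhere in the genome. A BLAST search with the 300 bases before each PAS (at least 90% identity over at least 200 bases) found 5 other loci for the first and second PAS of Map1lc3b, at up to 99.3% identity, and none for its last PAS. It found 6 other loci for each PAS of Gabarapl2, 2 for Ulk1, at up to 93.3% identity, and 1 for the last PAS of Sqstm1, at 96.0% identity, and none for Map1lc3a, Gabarapl1, Wipi1 and Becn1 or for the first PAS of Sqstm1. The 2 genes below fall outside the rule for naming genes and were chosen after their values had been seen. A PAS of Nif3l1 on chromosome 1 at position 58522506 (mm9, plus strand) lies 6 bases past the copy of the Sqstm1 end. That PAS was at 21.3 RPM in NT, 24.8 in AS and, after the wash, 145 in RC4 and 71.6 in RC8, which is 6.79-fold above NT in RC4 and 3.36-fold in RC8. The PAS of Gm6055 on chromosome 14 at position 48698785 lies 225 bases past a copy of the Map1lc3b end, and its reads went from 25.5 RPM in NT to 31.5 in AS and, in recovery, 85.6 in RC4 and 57.8 in RC8. How a read that matches several loci was counted is not given in the sources used here, and the part of such reads in the levels and shares of these members was not tested. The first PAS of Sqstm1, which has no such copy, rose 6.95-fold in RC4, and the last PAS of Map1lc3b, which has none either, rose 2.11-fold there. Map1lc3a, Map1lc3b and Becn1 end where another annotated gene also lies, Pigu and Cntd1 on the opposite strand and Gm20388 on the strand of Map1lc3b.

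The other genes of the pathway were taken from 9 lists of 87 genes in all, the 8 members included. Without the members, 1 gene rose and 10 fell of 72 in AS, 18 rose and 13 fell of 73 in RC4, and 22 rose and 4 fell of 73 in RC8. Over all genes, 1.88% rose and 11.4% fell in AS, 8.04% against 31.8% in RC4, and 11.3% against 11.9% in RC8, and the lists below are to be read beside these shares. The median log2 ratio of these genes was −0.03, 0.03 and 0.32. Relative to the median gene of RC4, 26 of them rose and 5 fell there, and the falls in RC4 of Ulk2 (−0.53), Atg4b (−0.50) and Foxo3 (−0.41) named below were then short of the limit, as were in AS those of Ulk2 (−0.55) and Nbr1 (−0.57) relative to its median gene.

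Most genes of the lysosome, where autophagosomes deliver their cargo, rose in recovery. None of 13 passed the limit in AS, 7 rose in RC4 and 10 rose in RC8, and none fell, with list medians of −0.03, 0.70 and 0.85. Atp6v1h, a subunit of the proton pump that acidifies the lysosome, went from 67.1 RPM in NT to 234 in RC4 (3.48-fold) and 161 in RC8 (2.41-fold). Ctsb, the protease cathepsin B, rose 2.12-fold in RC8. Over all genes 8.04% rose in RC4 and 11.3% in RC8. Of 12 genes for fusion of autophagosome and lysosome, 3 rose and 1 fell in RC4 and 2 rose in RC8. The gene that fell, Vamp8 (−0.67), was short of the limit relative to the median gene (−0.37). Rab7, the GTPase of late endosomes, rose 2.41-fold in RC4 and 2.02-fold in RC8.

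Of the ATG8 family, the gene that was not a member, Gabarap, rose too, from 135 RPM in NT to 223 in RC4 (1.65-fold) and 252 in RC8 (1.86-fold). Beside Sqstm1, 9 further cargo receptors and adaptors were in the tables, of which 3 rose and 2 fell in RC4. Tollip, an adaptor that binds ubiquitin, rose 2.03-fold in RC4, and Retreg1, a receptor for autophagy of the endoplasmic reticulum, rose 1.76-fold. Tbk1, the kinase that phosphorylates receptors, fell in RC4 from 48.5 to 23.5 RPM. Nbr1, a receptor related to Sqstm1, fell in AS from 57.0 to 37.3 RPM.

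Genes of the initiating complexes moved in both directions. Of the Ulk1 complex, Ulk2 fell in AS from 36.5 to 24.3 RPM and in RC4 from 36.7 to 20.7 RPM, and none of the 5 genes rose. Pik3c3 and Pik3r4, which encode the lipid kinase that Becn1 joins and its regulatory subunit, fell in AS by log2 ratios of −1.32 (−1.77 to −0.89) and −0.69 (−0.86 to −0.51). In RC4 they fell from 6.92 to 2.49 RPM and from 32.2 to 12.3 RPM. Pik3c3 had 62 reads in AS and 57 in RC4, near the lowest entry of 50. In RC8 Pik3c3 and Pik3r4 were at 1.26-fold and 1.00-fold of NT. Atg14 of the same complex rose 2.37-fold in RC4 and was 1.26-fold of NT in RC8, and Uvrag, another partner of Becn1, fell in RC8 from 41.9 to 20.6 RPM. Of the genes around Wipi1, Wipi2 rose 1.73-fold and Atg2a 1.84-fold in RC4, and Atg9a fell from 23.2 to 10.5 RPM. In the conjugation machinery that attaches ATG8 proteins to lipid, 1 of 8 genes rose in AS, Atg4d (2.70 to 6.24 RPM). Atg4d had 61 reads in NT, near the lowest entry of 50, and was not listed in the RC4 table. None of the 7 genes listed there rose (1 relative to the median gene), and Atg4b fell. In RC8, 2 of 8 rose, Atg4d (2.70 to 6.83 RPM) and Atg7 (6.11 to 12.2), while Atg12 fell from 81.9 to 51.7 RPM.

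Among the regulators, 5 of 13 fell and none rose in AS, where 11.4% of all genes fell. The largest falls there, as log2 ratios, were those of Foxo3 (−0.94), Tsc1 (−0.69) and Mtor (−0.67). Mtor, the kinase that restrains autophagy, went from 26.4 RPM in NT to 9.57 in RC4, a log2 ratio of −1.46, and was at −0.77 in RC8. In RC4, 1 of 14 rose and 5 fell, near the 8.04% and 31.8% of all genes, and relative to the median gene 2 rose and 1 fell. In RC8, 2 of 13 rose and 2 fell, beside 11.3% and 11.9% of all genes. Trib3, a stress-induced pseudokinase, rose 4.72-fold in RC4 and 1.87-fold in RC8. Foxo3, a transcription factor, fell 1.91-fold in AS, 1.63-fold in RC4 and 1.51-fold in RC8. Not listed in any table were Nrbf2, Atg4c, Atg10, Calcoco1 and Tfeb.

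**Figure D4:**
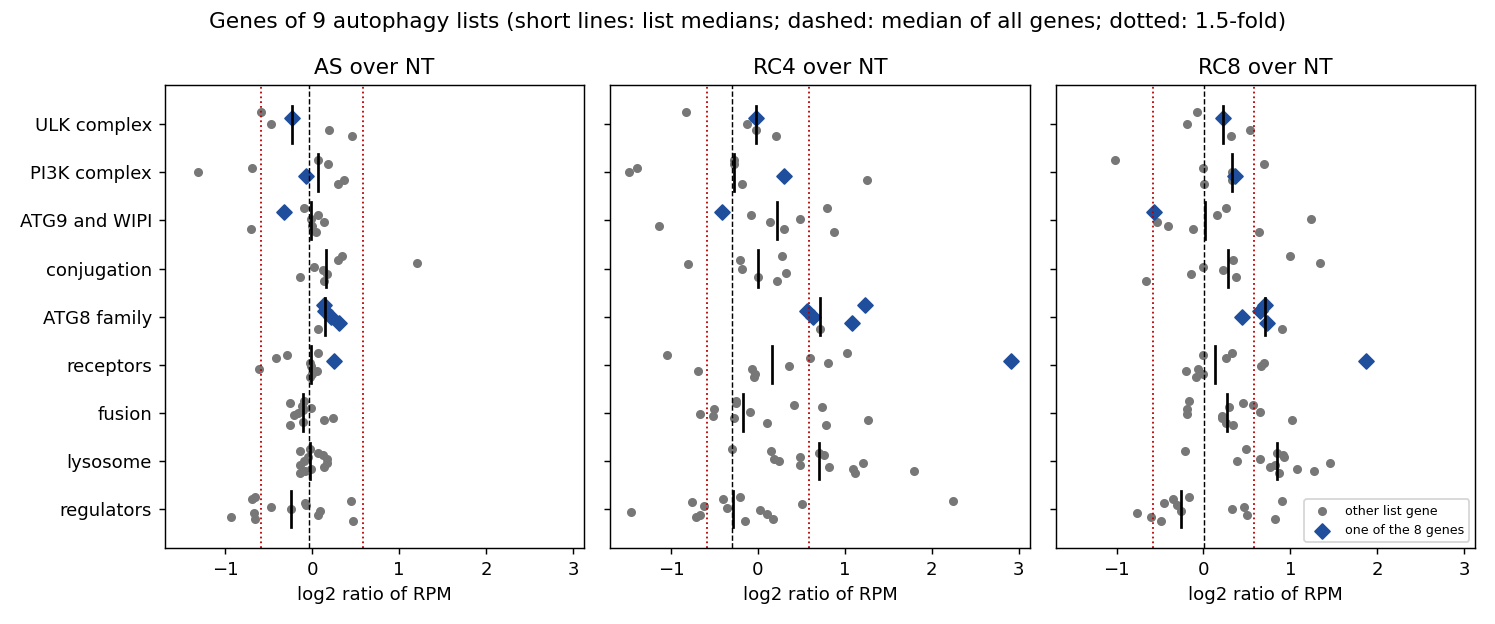
Log2 ratio to NT (x axis) of the genes of 9 autophagy lists (y axis) in AS, RC4 and RC8; diamonds are members, circles the other list genes, short lines list medians, the dashed line the median of all genes and dotted lines 1.5-fold. The lysosome list has its median at −0.03 in AS and, after the wash, 0.70 in RC4 and 0.85 in RC8.

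The genes with the pattern most like that of a member were found by the Euclidean distance between the 3 log2 ratios to NT, over 7814 genes with 200 or more reads in every library. Nearest to Sqstm1 was Procr, with ratios of 0.13 in AS and, in recovery, 3.02 in RC4 and 2.08 in RC8 and a distance of 0.27. Dusp5, Cryab, Ggct and Gm12346 followed at 0.59 to 0.72. Nearest to Map1lc3b were Atp6v1d, a subunit of the lysosomal proton pump (0.10), Litaf (0.10) and Arl8b, a GTPase that positions lysosomes (0.12). The nearest genes were BC017643, Agbl3 and Coq8b for Gabarapl1, Elp5, Gtpbp4 and Med28 for Gabarapl2, and Gm8822, Phgdh and Psmd8 for Map1lc3a, at 0.04 to 0.14.

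RefSeq promoters (GRCm38.p6, 250 bases before to 50 after the start) were found for 6 of the 8 genes, and 4 motifs were searched in them on both strands. The core of the antioxidant response element, TGACNNNGC, occurred in Map1lc3b alone, as it did in 12.4% of all 32851 promoters. The CLEAR E-box core CACGTG, the ATF4 composite core TGATGNAA and the heat shock element core GAANNTTC were in none of the 6 windows and in 7.15%, 3.97% and 7.86% of all promoters. Map1lc3a and Becn1 had no matching entry.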

How the data were processed

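QuantSeq FWD libraries from TRIzol-extracted total RNA of NIH3T3 cells were sequenced on an Illumina NextSeq. The authors trimmed reads with bbmap, mapped them to mm9 with STAR 2.5.2a and ran MAAPER with PolyA_DB v3. For genes with at least 50 reads the authors gave raw read counts, 2 columns to a library. PAS use is in the deposited tables as the fraction of a gene's reads at each PAS kept, with a limit of 5% per the methods. The deposited P values, RLD and RED scores hold the authors' own comparisons and were not used. QuantSeq REV libraries were not analysed here.

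The tables name the samples of a comparison only as c1 and c2. The former was taken as NT from the methods and because its counts were nearly equal in all 3 tables. Among genes with reads in both, the 2 count columns of a library agreed within sampling noise (chi-square per degree of freedom 0.974 to 1.027). Between 43 and 93 genes per library had reads in only 1 column. They were left out of this check, which therefore does not cover them. All members had reads in both columns. The columns of a library were added as 1 sample. RPM values are a gene's reads over the total of its table, and ratios to NT were taken within each table. NT levels of the members and markers are from the AS table. Those of the other list genes are from the table of the first comparison given beside them. Levels have Poisson intervals, ratios exact conditional binomial intervals, shares Wilson intervals and differences of shares Newcombe intervals, on the gene's reads and without the error of assigning reads to PASs. No test between conditions was run. The ratio intervals alone were also tested on simulated data. Python 3.11.15, SciPy 1.17.1, BLAST+ 2.17.0 and pysam 0.24.0 were used. Sequences at PASs were read from NCBIM37, the assembly of mm9.

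The members, lists and limits were chosen with earlier results of these data known. Genes named were the 8 members, Hmox1 as a check of the labels, at most the 3 list genes with the largest change past 1.5-fold per list, direction and comparison, and the 5 genes nearest to Sqstm1 and 3 nearest to each other member past 1.5-fold. The values of 1 gene that this rule names are not reported here. Alternatives were median scaling, single count columns, the NT reads of the other tables, the total over genes in all tables, other limits and other sets of PASs.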

Additional observations from a re-analysis of the deposited data

Results flagged for a closer look

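Ulk1 was on opposite sides of NT at different times. Its log2 ratio to NT was −0.23 in AS and 0.23 in RC8, each with a 95% counting interval that did not include 0. Both ratios share the NT library, each rests on 1 library, and the difference was not tested.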

How the results depend on the processing

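Setting the median gene to an unchanged level moved the log2 ratio of Sqstm1 in RC4 from 2.91 to 3.21, by construction, since the median gene was at −0.30 there. The other alternatives for count columns, NT reads and totals left the 3 ratios of Sqstm1 within their counting intervals. No member was past the limit in AS under any of the alternatives run. In RC4 the number was 4 in the main analysis, 6 under median scaling and 5 with the second count column alone, which added Map1lc3a (0.59). In RC8 it was 4, and 5 with the first count column alone, where Wipi1 fell (−0.63). Of 126 values for the other 7 members, 119 stayed within the counting interval and 7 moved, all in RC4 under median scaling. None changed sign where the counting interval of the main ratio excluded 0. Ulk1 in RC4, whose interval included 0 (−0.13 to 0.08), went from −0.02 to 0.28. With a limit of 2-fold, 3 members were called in RC4 and 1 in RC8. With a limit of 5 percentage points, 2 members were called for PAS use in RC4 and 2 in RC8, and with 20 points none (0) in RC8. The shares of all genes past these other limits were not computed, so the counts stand without a background. Differences of 6.90 points or more in RC4 and 8.00 or more in RC8 were seen in 45.5% and 36.7% of genes with at least 2 PASs. Among genes with at least 200 reads in both libraries, the background at 1.5-fold was 1.12% higher and 9.74% lower in AS, 7.70% against 27.6% for RC4, and 9.64% against 10.6% for RC8. The depth gave Wipi1, the member with the fewest reads, the widest intervals, and no depth within a single library covers variation between cultures.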
